A study of Mus musculus with 12 samples.

Results

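Periportal hepatocytes directly after isolation were nuclei of freshly isolated mouse hepatocytes that carried portal rather than central zonation transcripts. They were taken from the Cell Suspension samples (CS), which are pellets of collagenase-digested hepatocytes frozen before any culture, and set against periportal nuclei of the Liver samples (L), which are pieces of the same livers. Among nuclei annotated as isolated hepatocytes with at least 2000 unique molecular identifiers (UMIs, each standing for 1 captured RNA molecule), a score was formed as log2 of the UMIs of 8 pericentral genes plus 1 over the UMIs of 8 periportal genes plus 1. The pericentral genes were Cyp2e1, Cyp1a2, Slc1a2, Glul, Oat, Lgr5, Tbx3 and Cyp2c29, and the periportal genes were Hal, Cyp2f2, Gls2, Hsd17b6, Etnppl, Sds, Amdhd1 and Cryl1. The members are the lowest 25% of this score within each sample, ties included. They numbered 2446 of 9636 scored CS hepatocyte nuclei, with 75 to 591 per mouse, in a series of 53467 nuclei. The same score taken in nuclei annotated as hepatocytes in Liver chose 3289 of 12868 nuclei.

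The series holds single-nucleus RNA libraries of Liver, CS and hepatocytes cultured for 24 hours from 8 mice, mixed as 6 pools of 4 hashtagged samples. The study's methods describe chow-fed male C57BL/6NTac mice of 10 to 12 weeks, while the sample labels give the strain as C57BL6J. Each liver was flushed with calcium-free buffer, a part of the median lobe was then tied off and frozen as the Liver sample, and the remainder was digested with collagenase, strained, spun at low speed, washed and frozen as CS. The Liver sample thus holds 1 lobe only, and lobe, digestion, washing and handling time cannot be told apart in any difference between the 2 sample types. The labels name no difference in genotype or drug between the groups.

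Liver lobules are graded along the path of the blood, which enters at the portal vein and leaves by the central vein. Hepatocytes near the portal vein are known for urea synthesis, gluconeogenesis and the breakdown of histidine, serine and other amino acids, whereas those near the central vein make glutamine and carry out much of the cytochrome P450 metabolism, under Wnt signals from the central vein. Tissue dissociation is known to switch on immediate early genes, transcription factors such as Fos and Jun that are transcribed within minutes of a stimulus without new protein synthesis.

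The label held for the 4 marker genes named with it when each was left out of the score that picked the nuclei. These levels are a description, since all 8 portal genes define the set. Hal (histidine ammonia lyase, the first step of histidine breakdown) stood at 546 to 1764 CPM (UMI counts scaled to a fixed library total, median 1310.3) in the periportal set of the 8 CS samples and at 27.7 to 74.6 CPM (median 38.4) in the pericentral set, the highest 25%, so the sets did not overlap. Etnppl, a phospholyase of phosphoethanolamine, had 437 CPM ± 302 (SD, n = 8) against 12.1 ± 7.83 CPM. Gls2, the liver glutaminase that releases ammonia from glutamine, had 323 ± 87 against 26.1 ± 13.6 CPM. Hsd17b6, a steroid dehydrogenase, had 395 ± 225 against 30.8 ± 19.7 CPM. All 4 were higher in the periportal set in 8 of 8 CS samples and 8 of 8 Liver samples. The ratio of the mean levels was smaller in CS than in Liver, at 28.5 against 56.3 for Hal and 36 against 57.4 for Etnppl.

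**Figure D1:**
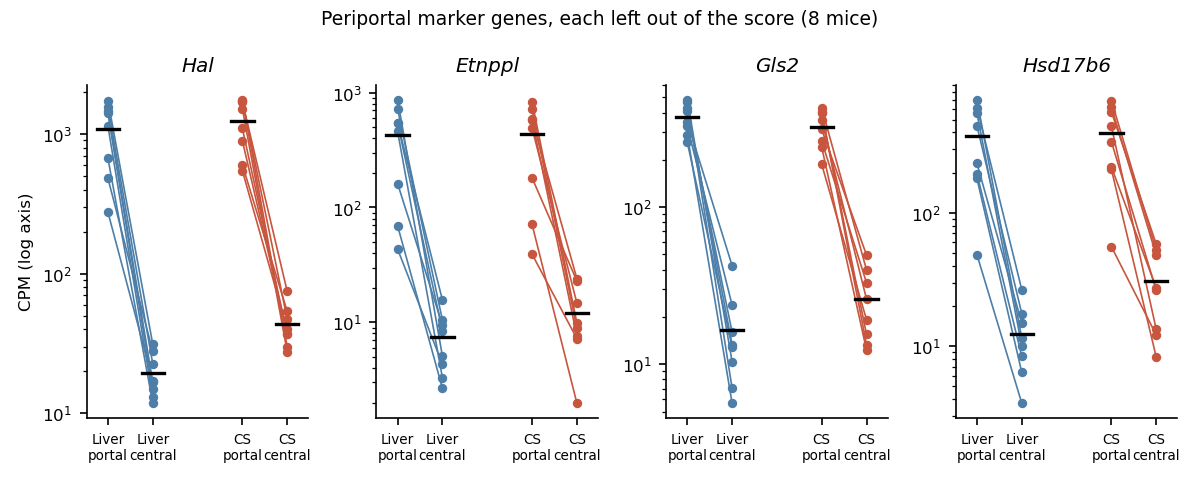
CPM on a log axis of the 4 marker genes in the periportal (bottom) and pericentral (top) 25% of each sample, with the plotted gene left out of the score. Points are the 8 mice, lines join the sets of 1 sample and black bars are means. Every line falls from portal to central, and Etnppl spans 39.2 to 833 CPM between mice in the portal set of CS.

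Of the 8 pericentral score genes, Cyp2e1 and Glul are described further for the same nuclei. Glul alone of the 8 was far higher in periportal CS than in periportal Liver nuclei. With each left out of the score, Cyp2e1, Cyp1a2, Slc1a2, Lgr5 and Tbx3 averaged 74, 9.87, 6.58, 1.73 and 1.32 CPM in CS. They averaged 89.8, 16.9, 8.19, 2.22 and 1.9 CPM in Liver. Oat and Cyp2c29 averaged 3.08 and 18.1 CPM in CS and 3.0 and 16.2 CPM in Liver. Cyp2e1, a cytochrome P450 of the central zone, averaged 74 CPM in the periportal CS set and 2678 CPM in the pericentral set when left out of the score. Endothelial nuclei of the same samples (1126 nuclei, median 1482 UMIs), which should lack it, held 314 CPM, so the periportal level lay below that of a type that should lack the transcript. Hal in endothelial nuclei averaged 136 CPM. Glul is the glutamine synthetase of the hepatocytes next to the central vein. With Glul left out of the score, it averaged 126 ± 86.8 CPM in periportal CS nuclei and 17.9 ± 11.7 CPM in periportal Liver nuclei, where the pericentral sets had 486 CPM in CS and 615 CPM in Liver, and endothelial nuclei held 165 CPM in CS and 55.9 CPM in Liver. At the edge of the periportal set, the 20 nuclei per sample just inside had 1129 CPM of Hal and 47.9 CPM of Cyp2e1, and the 20 just outside had 1128 and 63.2 CPM.

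Etnppl and Hsd17b6 differed more between mice than between the 2 sample types of a mouse. Etnppl ranged over 21.2-fold between the CS samples, lowest in mouse 5 and highest in mouse 4, and over 20-fold between the Liver samples with the same 2 mice at the ends. Within a mouse, CS over Liver was 0.903 to 1.12 for this gene. Hsd17b6 likewise ranged over 12.4-fold in CS and 14.5-fold in Liver, lowest in mouse 6 and highest in mouse 7 in both. In CPM without the scaling factors of the tests, Cyp2f2, Gls2 and Amdhd1 (an imidazolonepropionase of histidine breakdown) were lower in CS in all 8 mice. Their median ratios were 0.722, 0.853 and 0.752, whereas Sds (serine dehydratase) was higher in 7 of 8 with a median ratio of 1.34. The scaling factors ran from 0.853 to 1.04 in CS and from 0.967 to 1.19 in Liver. The direction of a ratio near 1, as in some mice for Gls2, thus depends on the scaling. These 8 genes chose the nuclei, so their values are a description. They stayed in the tables tested across all genes, and their test results support nothing here.

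The summed periportal UMIs of the tested genes came to 406969 to 5379535 per CS sample and 1942936 to 7224487 per Liver sample. CS and Liver of the same mouse shared a pool only for mice 6 and 7, and 2 of the 6 pools held no Liver sample. Barcodes found in more than 1 pool numbered 337, and 21 members carried one. The tests below compare samples, so cells of 1 sample count once.

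Periportal CS nuclei gave fewer UMIs than periportal Liver nuclei, and a smaller share of them was unspliced. Median UMIs per nucleus ran from 4367 to 9677 (median 6302) over the CS samples and 7341 to 13630 (median 9869.5) over the Liver samples (two-sided exact permutation test of 8 against 8 samples, p adjusted over 4 measures = 0.0118, lower in 7 of 8 mice). Median genes per nucleus were 2011 to 3069.5 (median 2473) and 2852 to 4221 (median 3564) (exact permutation test, adjusted p = 0.00186). Unspliced UMIs, which still hold intron sequence, made up 66 to 71 (median 69.3) percent in CS and 72.8 to 76.2 (median 73.6) percent in Liver, with no overlap between the groups (exact permutation test, adjusted p = 0.000622, lower in 8 of 8 mice). Mitochondrially encoded UMIs were 0.0909 to 0.176 (median 0.109) and 0.081 to 0.177 (median 0.117) percent and did not pass the test (exact permutation test, adjusted p = 0.441). These tests do not pair CS and Liver of a mouse. A paired exact test over the 8 mice gave unadjusted p of 0.0156 for UMIs and 0.0156 for genes. For the unspliced and mitochondrial shares this paired exact test gave 0.00781 and 0.453. Within CS, the mean over samples of the median UMIs was 6532 in the periportal members and 3929 in the middle of the score. In Liver it was 10392 and 8009, with 11531 in the pericentral set. The score can only be extreme in a nucleus with many UMIs of its genes, so the rule itself favours deeper nuclei at both ends. Pericentral CS nuclei had 5011 median UMIs and an unspliced share of 61.7 ± 5.87 percent against 68.8 ± 1.83 percent in the members.

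The largest differences between periportal nuclei of CS and of Liver were rises after isolation. Summed counts of the members were compared between the 8 CS and 8 Liver samples by the quasi-likelihood test of edgeR, with p adjusted after Benjamini and Hochberg over 19997 genes, the test behind every adjusted p given for CS against Liver. Of these genes, 696 (3.48%) were higher and 1824 (9.12%) lower in CS at an adjusted p under 0.05, 12.6% in all, and over all genes tested the log2 fold change had a median of -0.08. With the mouse as a block, 1579 (7.9%) were higher and 2955 (14.8%) lower. The split moved with the settings. Of the calls 27.6% were higher in CS as fitted, 38.4% with RLE size factors, 39% with a stricter filter on low counts and 42.7% in DESeq2, which changes both the scaling and the test. With the pool as a covariate 1308 genes passed, and with every sum thinned to the shallowest total 694 did, of which 350 were higher.

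Immediate early genes led the rise. Of 26 genes of this list that could be tested, 20 were higher and none lower in CS, with a median log2 fold change of 3.04, and for 15 of them the 8 CS and 8 Liver values did not overlap (background over all genes 3.1%). Atf3, a stress-induced repressor of the ATF family, ran from 355 to 1402 CPM in the Cell Suspension sums (median 937) and from 0.999 to 10.3 CPM in the Liver sums (median 4.63). The lowest CS sample lay far above the highest Liver sample (log2 fold change 7.37, SE 0.44, adjusted p = 1.71e-10). Fos, a subunit of the AP-1 transcription factor, ran from 129 to 414 CPM in the Cell Suspension sums (median 278) and from 1.81 to 7.26 CPM in the Liver sums (median 2.61), again without overlap (log2 fold change 6.38, SE 0.31, adjusted p = 4.71e-12). Its relative Fosb had a larger change (log2 fold change 7.21, SE 0.48, adjusted p = 7.77e-10), from 0.286 to 1.84 CPM in Liver to 26.5 to 282 CPM in CS. Jun, the partner of Fos in AP-1, ran from 675 to 1965 CPM in the Cell Suspension sums (median 1396) and from 6.99 to 72.4 CPM in the Liver sums (median 27.8) (log2 fold change 5.49, SE 0.36, adjusted p = 7.46e-10). Egr1, a zinc finger factor of the same response, ran from 561 to 977 CPM in the Cell Suspension sums (median 856) and from 8.99 to 92.7 CPM in the Liver sums (median 16), and mouse 2 was the lowest CS sample (log2 fold change 4.55, SE 0.44, adjusted p = 2.15e-07).

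The other 5 of the 10 largest rises were Btg2, Ier2, Gadd45a, Actg1 and Ccn1. Btg2, an antiproliferative regulator of mRNA decay, Ier2, an immediate early nuclear protein, and Gadd45a, a growth arrest and DNA damage protein, had log2 fold changes of 5.09, 4.97 and 4.76. Actg1, cytoplasmic gamma actin, ran from 244 to 489 CPM in the Cell Suspension sums (median 383) and from 4 to 16 CPM in the Liver sums (median 10.4) (log2 fold change 5.14, SE 0.24, adjusted p = 4.71e-12). Ccn1, a matricellular protein and a known YAP target, rose from a median of 2.23 to 74.8 CPM (log2 fold change 4.96, SE 0.35, adjusted p = 2.15e-09). The 10 largest rises were separated completely between the groups, which the rule for naming them required. All 10 were called also with the pool as a covariate, with nuclei thinned to 2000 UMIs, and from spliced UMIs alone. Of the immediate early list 6 genes did not pass, among them Myc (4.48 and 10.1 CPM on average in Liver and CS, adjusted p = 0.233, and 2.29e-06 with the mouse as a block) and Fosl2 (adjusted p = 0.392).

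The promoters of Btg2 and of Dusp1 (a phosphatase of MAP kinases, log2 fold change 1.01, SE 0.22, adjusted p = 0.00274) were the only ones among the 22 immediate early genes with a RefSeq window that hold the cAMP response element TGACGTCA on either strand, and they are shown for that reason. Such a match was present for 9.09% of these genes and for 2.52% of all tested genes with a window. Capitals mark matches to this element, to the AP-1 element TGANTCA, to the E-box CACGTG or to the heat shock pair GAANNTTC in the 250 bases before the start (RefSeq, GRCm38.p6, written 5′ to 3′ on the gene's strand). In Btg2 the element begins 166 bases before the start. In Dusp1 it begins 143 bases before it and is followed by an E-box at 126.
Btg2, chr1:134079156-134079405, minus strand: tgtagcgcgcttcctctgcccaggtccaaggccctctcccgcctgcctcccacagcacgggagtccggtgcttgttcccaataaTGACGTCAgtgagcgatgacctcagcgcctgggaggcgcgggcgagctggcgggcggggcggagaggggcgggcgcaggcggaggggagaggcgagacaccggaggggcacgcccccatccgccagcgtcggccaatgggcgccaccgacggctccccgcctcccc
Dusp1, chr17:26508473-26508722, minus strand: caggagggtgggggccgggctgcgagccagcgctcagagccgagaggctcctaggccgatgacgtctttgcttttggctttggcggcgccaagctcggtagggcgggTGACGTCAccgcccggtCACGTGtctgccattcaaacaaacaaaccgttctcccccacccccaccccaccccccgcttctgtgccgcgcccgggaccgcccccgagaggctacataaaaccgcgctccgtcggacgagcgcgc
The AP-1 element was found in none of the 22 and the E-box in 6, or 27.3%, against 6.67% and 8.69% of all tested genes. Klf4, which is among the 22 and holds an E-box, was not among the tested genes. The heat shock pair was found for 6 of the 12 heat shock genes with a window and for 6.66% of all tested genes. These 6 are not independent. Hspd1 and Hspe1 share 1 site between them on opposite strands. Hspa1a and Hspa1b have near-identical windows with the site at 104, and Hspa1a was not among the tested genes. These are matches of letters in a fixed window and are given as a description.

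**Figure D2:**
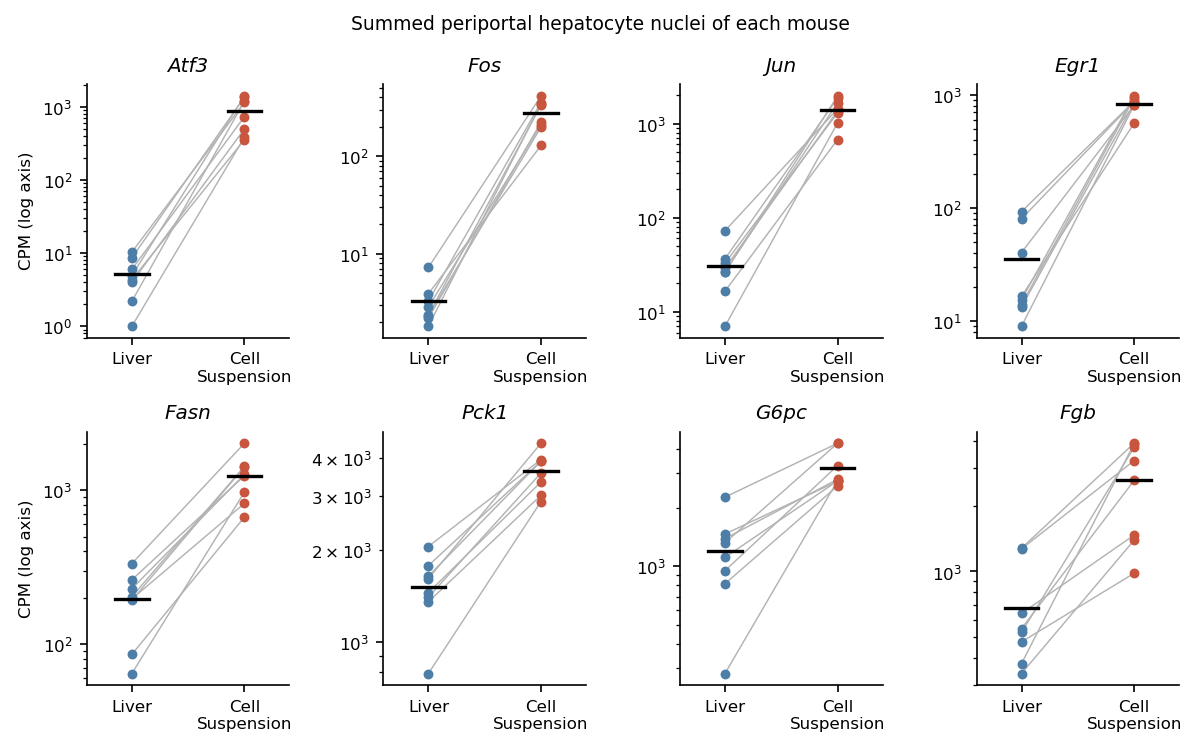
CPM on a log axis of 8 genes in the summed periportal nuclei of each mouse. Grey lines join Liver (blue) and Cell Suspension (red) of the same mouse and black bars are means of 8. The immediate early genes of the upper row (Atf3, Fos, Jun, Egr1) and Fasn, Pck1 and G6pc do not overlap between the groups, while Fgb does.

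Chaperone, unfolded protein and cytokine genes rose in part. For comparison, 3.48% of all genes were higher, or 7.9% with the mouse as a block. Among heat shock chaperones 7 of 14 were higher and none lower, or 10 higher with the mouse as a block. Of the 7, the cochaperone Dnaja1 was not called without mouse 1, 2, 3, 4, 5 or 7 (adjusted p = 0.0703 to 0.123). Hspa8, the constitutive cytosolic Hsp70, ran from 140.2 to 356 CPM in the Cell Suspension sums (median 255) and from 29.5 to 66.3 CPM in the Liver sums (median 45.3) without overlap (log2 fold change 2.46, SE 0.18, adjusted p = 3.54e-09). Hspb8, a small heat shock protein, had a log2 fold change of 1.49 (adjusted p = 1.5e-06). Of 16 unfolded protein response genes 8 were higher and none lower, or 10 higher and 1 lower with the mouse as a block. Of these 8, Atf4 (a stress-induced transcription factor), Creld2 and the chaperone Hsp90b1 all lost their call without mouse 3, 4 or 6, which left 5. Without mouse 4 their adjusted p was 0.136, 0.0606 and 0.0762. Hspa5, the Hsp70 of the endoplasmic reticulum, ran from 54.5 to 1184 CPM in the Cell Suspension sums (median 166) and from 44.3 to 109 CPM in the Liver sums (median 72), with mouse 8 far above the other CS samples and the lowest CS sample inside the Liver range (log2 fold change 1.91, SE 0.45, adjusted p = 0.00623). Ddit3, the apoptosis-linked factor of that response, had 17.7 and 17.9 CPM in Liver and CS (adjusted p = 0.969). In the cytokine list 4 of 16 were higher, and 9 with the mouse as a block. Irf1, an interferon regulatory factor, is among the 4 and was not called without mouse 1, 2, 3, 4, 6, 7 or 8 (adjusted p = 0.0509 to 0.167). Socs3, the inhibitor of JAK and STAT signaling, had the largest of these changes (log2 fold change 4.41, adjusted p = 6.83e-07), followed by the neutrophil chemokine Cxcl1 (2.92, adjusted p = 0.00011).

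Acute phase genes, which encode plasma proteins that hepatocytes release in inflammation, were higher for 9 of 15 with a median log2 fold change of 1.35, and none was lower. With the mouse as a block 13 of the 15 were higher and none lower. The share of all genes that were higher was 3.48%, or 7.9% with the block. Fgb, the beta chain of fibrinogen, ran from 981 to 3904 CPM in the Cell Suspension sums (median 2938) and from 338 to 1281 CPM in the Liver sums (median 534). Its groups overlapped (log2 fold change 1.96, SE 0.33, adjusted p = 0.000265). Fgg, Fga and Hp (haptoglobin) had log2 fold changes of 1.92, 1.52 and 1.35. For Fga and Hp the adjusted p was 0.105 and 0.208 with the pool as a covariate, and Lcn2 was not called without mouse 1 (0.0518), nor Fga without mouse 1 or 4 (0.0671 to 0.0736). Crp, the C-reactive protein gene, had 721 CPM in Liver and 719.8 CPM in CS (adjusted p = 0.999).

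Of the list of 20 periportal genes outside the score, 5 were higher in CS and none was lower, and the median log2 fold change was 0.29. With the mouse as a block 12 were higher, against 7.9% of all genes (3.48% without the block). Pck1, the cytosolic enzyme that commits oxaloacetate to gluconeogenesis, ran from 2882 to 4471 CPM in the Cell Suspension sums (median 3739) and from 789 to 2054 CPM in the Liver sums (median 1532), so that every CS sample lay above every Liver sample (log2 fold change 1.27, SE 0.17, adjusted p = 2.43e-05). G6pc, the phosphatase that releases glucose, ran from 2581 to 4275 CPM in the Cell Suspension sums (median 2772) and from 282 to 2264 CPM in the Liver sums (median 1217), also without overlap (log2 fold change 1.41, SE 0.27, adjusted p = 0.00101). Got1, the cytosolic aspartate aminotransferase, had a log2 fold change of 1.54 (adjusted p = 0.000228). Of 14 gluconeogenesis genes 4 were higher and none lower, or 9 higher with the mouse as a block. Fbp1 (fructose bisphosphatase) had 924 and 1083 CPM in Liver and CS (adjusted p = 0.497, and 0.0299 with the block).

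In the urea cycle, which turns ammonia into urea, 2 of 11 genes passed the test and both were higher. They were Asl, the argininosuccinate lyase (log2 fold change 0.68, SE 0.22, adjusted p = 0.0476), and Glud1, the glutamate dehydrogenase that feeds ammonia into the cycle (log2 fold change 0.64, SE 0.17, adjusted p = 0.0128). Cps1, the entry enzyme, ran from 4345 to 12256 CPM in the Cell Suspension sums (median 6495) and from 3225 to 10692 CPM in the Liver sums (median 5054), an overlap (log2 fold change 0.37, adjusted p = 0.419, and 0.000286 with the block). Neither Asl nor Glud1 was called with the pool as a covariate (adjusted p = 0.168 and 0.0853). Asl was not called without any one of mice 1, 2, 3, 4, 6, 7 and 8 (adjusted p = 0.0526 to 0.0993), and Glud1 without mouse 1 (0.0521). With the mouse as a block 7 of the 11 were higher, against 7.9% of all genes (3.48% without the block). Among amino acid catabolism genes outside the score, 2 of 21 were higher and 2 lower, or 6 and 3 with the block. The lower count is near the share of all genes called lower (9.12%, and 14.8% with the block), so it is no result about this list. The higher ones were Hpd of tyrosine breakdown (0.89) and Sdsl, a serine dehydratase paralog (0.65), and the lower ones were Haao of tryptophan breakdown (-0.45) and Bckdha of branched-chain amino acid breakdown (-0.54), all as log2 fold changes. With the pool as a covariate none of these 4 was called (adjusted p = 0.0969, 0.131, 0.159 and 0.0511), and Sdsl was lost without mouse 1, 2, 4 or 5 (0.0643 to 0.0944) and Haao without mouse 1 or 4 (0.0506 to 0.0522). In spliced UMIs alone the change of Haao was 0.34 and did not pass.

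Some lipogenic genes were higher after isolation. Of 13 genes 5 were higher and none lower, or 9 higher with the mouse as a block. Fasn, the fatty acid synthase, ran from 669 to 2029 CPM in the Cell Suspension sums (median 1258) and from 64 to 333 CPM in the Liver sums (median 199), with the lowest CS sample above the highest Liver sample (log2 fold change 2.66, SE 0.29, adjusted p = 1.44e-06). Scd1 and Elovl5, a desaturase and an elongase of fatty acids, had log2 fold changes of 2.03 and 1.81. In spliced UMIs alone the change of Elovl5 was -0.45 (adjusted p = 0.291), and in unspliced UMIs alone it was 2.05. Acly, the ATP citrate lyase, was called (1.12) but not without mouse 1, 2, 4, 6 or 7 (adjusted p = 0.0508 to 0.0882). Srebf1, the factor that drives this program, had a log2 fold change of 1.33 (adjusted p = 0.000499). In the cholesterol list, 3 of 19 were higher, among them the sterol sensor partner Insig1 (log2 fold change 1.18), and 2 were lower, Dhcr7 (-0.63) and Msmo1 (-0.62), both enzymes of sterol synthesis. Without the mouse as a block the share lower is near that of all genes (9.12%). With the mouse as a block 6 of the 19 were higher and 7 lower, both above the shares of all genes (7.9% and 14.8%). Sqle, the squalene epoxidase, is among the 3 higher and was not called without mouse 1 or 4 (adjusted p = 0.0505 and 0.0583). Of 17 fatty acid oxidation and fasting genes 3 were higher (7 with the block), with Pdk4, the kinase that shuts pyruvate dehydrogenase, at 2.28 (1.33 to 16.5 CPM in CS and 0 to 2.17 CPM in Liver), and Cpt2 of the carnitine shuttle was lower (-0.75). Over all genes 3.48% were higher and 9.12% lower, so 1 lower gene of 17 is no result about this list. With the pool as a covariate Pdk4 and Dhcr7 were not called (adjusted p = 0.292 and 0.157). Msmo1 was not called without mouse 2, 4, 5, 7 or 8 (adjusted p = 0.0601 to 0.0862), and Pdk4 without mouse 1 (0.0682).

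Over all genes 3.48% were higher and 9.12% lower, or 7.9% and 14.8% with the mouse as a block. Of 20 hepatocyte transcription factors 5 were higher and 1 was lower, and with the mouse as a block 6 were higher and 6 lower. The higher ones were the 3 C/EBP genes Cebpa (1.03), Cebpb (2.78) and Cebpd (2.24), the nuclear receptor partner Rxra (0.86) and the bile acid responsive repressor Nr0b2 (1.03). Foxa3, a forkhead factor of endoderm, was lower. It ran from 12.8 to 30.8 CPM in the Cell Suspension sums (median 21.1) and from 49.4 to 96.4 CPM in the Liver sums (median 64.7), without overlap (log2 fold change -1.72, SE 0.20, adjusted p = 2.5e-06). Hnf4a, the nuclear receptor central to hepatocyte identity, had 442 and 379 CPM in Liver and CS (adjusted p = 0.362). The test behind this p does not pair CS and Liver of a mouse, so it could miss a small shift within mice. Of 16 antioxidant response genes 3 were higher (6 with the block, and 1 lower), the metallothioneins Mt1 (4.51) and Mt2 (4.34) and the heme oxygenase Hmox1 (3.32), and none was lower without it. Nqo1, a quinone reductase of the same list, had 2.13 and 1.98 CPM in Liver and CS (adjusted p = 0.787). In the hypoxia list 4 of 15 were higher (6 with the block, and 1 lower), Adm, Ndrg1, Ldha and Vegfa. Ldha, Vegfa and Ndrg1 had log2 fold changes of 1.08, 0.79 and 2.29. Ndrg1 was low, at 0 to 11.9 CPM in CS and 0 to 4.29 CPM in Liver, and Adm was at 0 in 7 of 8 Liver samples and 3 of 8 CS samples and at most 3.03 CPM in the others, so no fold is given for it. Of these, Adm, Ndrg1 and Ldha were not called with the pool as a covariate (adjusted p = 0.181, 0.107 and 0.335), nor Ldha without mouse 1 (0.0571). Of 19 clock genes 3 were higher, or 6 higher and 3 lower with the block. The lower count is near the share of all genes lower with the block (14.8%), so it is no result about this list. Among the 3 higher without the block, Bhlhe40, a repressor of the clock loop, had a log2 fold change of 2.17 (adjusted p = 3.92e-06). The other 2, Nfil3 and Nr1d1, which encode repressors of transcription, both lost their call without mouse 5 (adjusted p = 0.0594 and 0.0942) or without mouse 7 (0.0553 and 0.0798). Arntl, the core activator of the clock, varied between mice, from 7.53 to 71.4 CPM in CS and 6.99 to 66.4 CPM in Liver (adjusted p = 0.917). That test does not pair CS and Liver of a mouse, so it could miss a shift within mice that is small beside this spread.

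Of 20 pericentral genes outside the score none was called higher and 1 lower (2 with the block), where 3.48% of all genes were higher and 9.12% lower, so the counts are near the background. The lower one was the organic cation transporter Slc22a3 (log2 fold change -2.54, SE 0.32, adjusted p = 9.26e-06), and its change was 0.13 in unspliced UMIs alone (adjusted p = 0.933). Of 11 genes of Wnt signaling outside the score none passed the test in either direction, and 2 were higher with the mouse as a block. No marker of another cell type passed the test either. None of the 8 endothelial, 8 Kupffer, 8 stellate, 7 biliary and 5 leukocyte markers tested was called, nor with the mouse as a block. Summed endothelial markers stood at 18.4 to 43.8 CPM in CS and 22.8 to 40.1 CPM in Liver, and Kupffer markers at 2.69 to 18.8 and 6.08 to 14.7 CPM. Stellate markers summed to 108 to 422 CPM in CS and 109 to 369 CPM in Liver, and Ank3, an ankyrin that hepatocytes also express, gave 213 CPM of this on average in CS. Endothelial nuclei of CS carried immediate early transcripts too, with mean levels of 316 CPM for Fos and 783 CPM for Jun against 9.33 and 29 CPM in those of Liver. The part of free RNA in the rise was not tested.

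**Figure D3:**
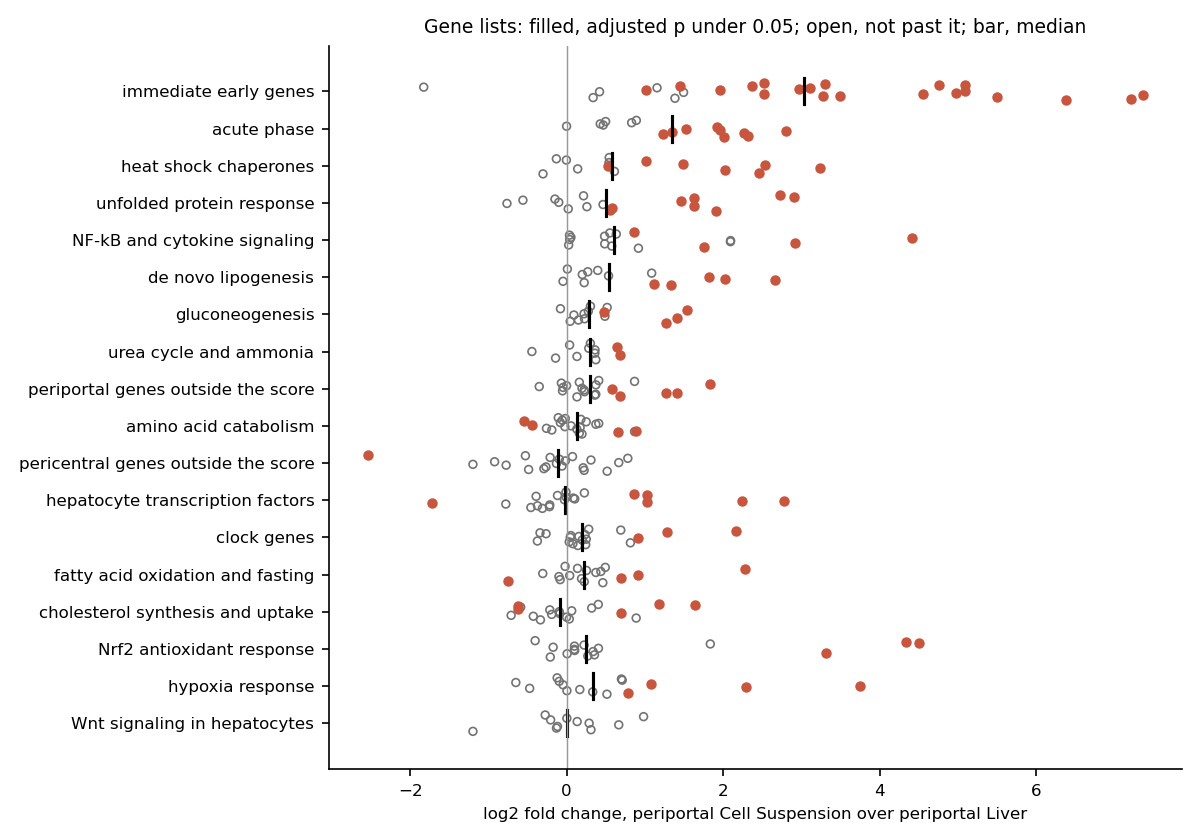
Log2 fold change of each tested gene of 18 lists, periportal Cell Suspension over periportal Liver, with genes of the score left out. Filled points passed an adjusted p under 0.05, open points did not, and bars are list medians. Immediate early genes reach a median of 3.04 and acute phase genes 1.35, while the medians of the pericentral and Wnt lists are -0.11 and 0.00.

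The falls were smaller than the rises. The 10 largest among genes of at least 50 CPM in a group and without overlap lay between -1.90 and -1.09 on the log2 scale, against 4.55 to 7.37 for the 10 largest rises. Adh7, an alcohol dehydrogenase, ran from 9.42 to 42.9 CPM in the Cell Suspension sums (median 26.6) and from 58.7 to 149 CPM in the Liver sums (median 116) (log2 fold change -1.90, SE 0.22, adjusted p = 2.59e-06). Thap2, a zinc finger protein gene, had 50.4 CPM in Liver and 14.9 CPM in CS as medians (log2 fold change -1.75). Foxa3 came next, followed by the liver-enriched small membrane protein gene Smlr1 (-1.68), the membrane protein gene Tmem205 (-1.44), the ATP synthase subunit gene Atp5f1 (-1.27), the cysteine protease Ctso (-1.13), the zinc finger gene Zfp207 (-1.12), the peroxisomal Pex11g (-1.11) and the long noncoding RNA Jpx (-1.09). All 10 were also called with the mouse as a block, with the pool as a covariate and in nuclei thinned to 2000 UMIs.

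Whether the 2 ends of the lobule answered alike was tested by the difference between periportal and pericentral sums of the same sample, compared between CS and Liver (quasi-likelihood test of edgeR with the sample as a block, Benjamini-Hochberg adjustment over 22438 genes, 32 sums scaled together). The resulting log2 value is the portal-central difference in CS minus that in Liver. It was below 0 for 402 genes (1.79%) and above 0 for 206 (0.918%) at an adjusted p under 0.05, 2.71% in all. The balance moved with the settings. Of these calls 33.9% lay above 0 as fitted and 22.7% with RLE size factors. It was 12.3% with every sum thinned to the shallowest total and 16.2% from nuclei of at least 4000 UMIs. In pools holding both types it was 51.9%, and against all other hepatocyte nuclei of the sample 50.3%. Outside the score the counts were 401 and 204. Of the 401 with a lower value, 140 also rose in periportal CS nuclei, so these rises were smaller at the portal than at the central end. Of all genes tested 3.48% rose there. At the portal end 156 of the 401 were lower in all 8 CS samples and 24 were higher. In all 8 Liver samples 35 were lower and 109 higher. The 401 were chosen by this difference, which favours lower portal values in CS, and the share over all genes was not taken.

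Several immediate early genes belonged to this group, 9 of 27 with a lower and 1 with a higher value. Nr4a1, an orphan nuclear receptor induced by hormones and stress, ran in CS from 26.8 to 149 CPM (median 55.7) in the periportal sums and 82.7 to 179 CPM (median 112) in the pericentral sums. In Liver it ran from 2.78 to 25.1 CPM (median 7.23) in the periportal sums and 0.363 to 10.3 CPM (median 3.3) in the pericentral sums. It was thus higher at the portal end in 7 of 8 Liver samples and in 1 of 8 CS samples (log2 difference -1.89, SE 0.25, adjusted p = 2.93e-07). Egr1 stood in CS at 850.1 CPM in the periportal and 1091 CPM in the pericentral sums as medians. It was lower at the portal end in 8 of 8 CS samples. The Liver medians were 16 CPM in the periportal and 15.4 CPM in the pericentral sums (log2 difference -1.28, SE 0.25, adjusted p = 0.000433). The fitted difference of Egr1 is larger than these medians alone give, and its call was lost in unspliced UMIs alone, as given below. Fosb had 131 CPM in the periportal and 321 CPM in the pericentral sums in CS (log2 difference -1.63, adjusted p = 0.0405, and 0.134 against all other hepatocyte nuclei of the sample). Its call was lost without mouse 1, 2, 6 or 8 (adjusted p = 0.0721 to 0.147). Fos, Ier2 and Gadd45g had differences of -1.33, -0.85 and -1.28. Of the 9, Dusp1 and Fosl2 were not called without mouse 4 (adjusted p = 0.1 and 0.162), and Klf2, which was below 1 CPM in every periportal sum, not without mouse 1, 3 or 8 (0.068 to 0.0864). Jun and Atf3 did not pass, with 0.47 (SE 0.19, adjusted p = 0.211) and -0.40 (SE 0.21, adjusted p = 0.416), and Jund had the opposite sign (0.63, adjusted p = 0.000387).

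Irs2, an insulin receptor substrate, separated the zones in CS. There it ran from 98.3 to 174 CPM (median 122) in the periportal sums and 297 to 468 CPM (median 370.2) in the pericentral sums, with no overlap between the zones. In Liver it ran from 33.2 to 67.9 CPM (median 51.3) in the periportal sums and 38.3 to 72 CPM (median 47.6) in the pericentral sums, where the zones overlapped (log2 difference -1.53, SE 0.12, adjusted p = 1.41e-15). Bcl2l11, the proapoptotic factor Bim, had 18.8 CPM in the periportal and 76.7 CPM in the pericentral sums in CS and 16.1 CPM in the periportal and 19.5 CPM in the pericentral sums in Liver as medians (log2 difference -1.53, adjusted p = 3.72e-11). Wars, the tryptophanyl tRNA synthetase, had 30.5 CPM in the periportal and 58.9 CPM in the pericentral sums in CS and 15.3 CPM in the periportal and 11.9 CPM in the pericentral sums in Liver (log2 difference -1.52, adjusted p = 1.22e-10). Bcl2l11 itself did not pass between periportal CS and periportal Liver (log2 fold change 0.69, adjusted p = 0.15). Depth and the unspliced share of the CS zones are given above, and their part in these differences was not tested beyond the following fits. In unspliced UMIs alone Nr4a1, Irs2, Bcl2l11 and Wars were called with differences of -1.77, -1.69, -1.82 and -1.55, whereas Egr1 had -0.34 (adjusted p = 0.84) and Fosb -0.81 (adjusted p = 0.853). With nuclei thinned to 2000 UMIs, Fosb and Fos were not called (adjusted p = 0.217 and 0.274).

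**Figure D4:**
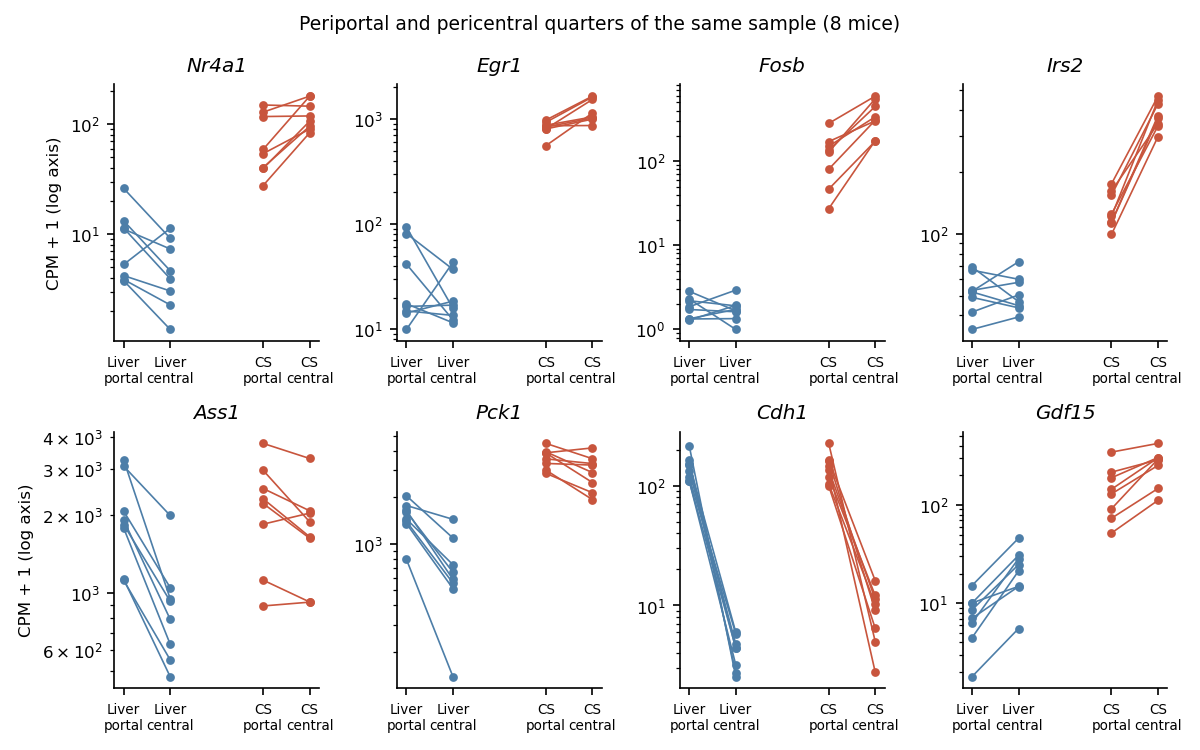
CPM plus 1 on a log axis of 8 genes in the periportal and pericentral 25% of each sample, in Liver (blue) and Cell Suspension (red, CS), with lines joining the sets of 1 sample. Nr4a1, Egr1, Fosb and Irs2 rise toward the central end in CS, Ass1 and Pck1 have a smaller portal excess than in Liver, Cdh1 is portal in both, and Gdf15 is central in both.

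Part of the portal excess of metabolic genes was smaller in CS. Of 20 periportal genes outside the score, 9 had a lower portal-central difference and none a higher one, and the median difference was -0.59 against -0.02 over all genes. Of 20 pericentral genes outside the score 2 had a higher and 1 a lower difference, with a median of 0.27. Of 12 Wnt signaling genes 3 had a higher difference and none a lower one, with a median of 0.21. Over all genes 0.918% were higher and 1.79% lower. Nkd1, which is in both of these lists, was not called without mouse 2, 7 or 8 (adjusted p = 0.105 to 0.149). Of the 5 marker lists of other cell types, all but the biliary list had medians further below 0 than all genes, the leukocyte list only slightly. The median difference was -0.76 for endothelial markers, with Ptprb called lower (-0.97, adjusted p = 0.0209), -0.51 for Kupffer markers, with Adgre1 called lower (-1.31, adjusted p = 0.0254), and -0.38 for stellate markers, with none called. It was -0.08 for leukocyte and 0.08 for biliary markers, with none called. Ptprb was not called without mouse 2, 3 or 4, nor Adgre1 without mouse 1, 3 or 8, and the part of other cells' RNA in the zonal differences was not tested. Ass1, the argininosuccinate synthase of the urea cycle, ran in CS from 889 to 3780.2 CPM (median 2261) in the periportal sums and 919 to 3305 CPM (median 1763) in the pericentral sums. In Liver it ran from 1116 to 3258 CPM (median 1871) in the periportal sums and 473 to 1989.6 CPM (median 858) in the pericentral sums, so the zones were further apart there (log2 difference -0.91, SE 0.11, adjusted p = 2.64e-08). The median log2 portal over central of Pck1 was 0.37 in CS and 1.31 in Liver, and that of G6pc was -0.05 and 0.62 (adjusted p of the difference = 2.37e-06 and 8.17e-05). Agxt, an aminotransferase of glyoxylate, was portal in 8 of 8 Liver samples (0.96) and in 2 of 8 CS samples (-0.34, log2 difference -1.41, adjusted p = 1.16e-11). Fasn and Elovl5 had differences of -0.78 and -0.96. For Ass1, Pck1, G6pc, Agxt and Fasn the ratio of the CS to the Liver median was larger in the pericentral than in the periportal sums. Fbp1, Otc (the ornithine transcarbamylase of the urea cycle) and Pigr (the immunoglobulin transporter) did not pass, with differences of -0.15 (SE 0.11), 0.00 (SE 0.10) and -0.16 (SE 0.14). Acute phase genes gave 7 of 15 lower, of which Fgb was not called without mouse 2, 3, 5 or 7 (adjusted p = 0.0569 to 0.0787) and Saa1 not without mouse 1, 2, 3 or 7 (0.0502 to 0.145). Heat shock chaperones gave 5 of 15 lower and 1 higher. Of the 5, Dnajb1 was not called without mouse 1 or 3 (adjusted p = 0.0756 and 0.0702), nor Dnaja1 without mouse 6 (0.0542). The higher one, Chordc1, was not called without mouse 1, 2, 4, 5, 6, 7 or 8 (adjusted p = 0.0535 to 0.147), and with the score of thinned nuclei 0 were higher.

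Most of the tissue's portal pattern was still readable after isolation. Outside the score, 165 genes of at least 20 CPM were portal in all 8 Liver samples and by more than 2-fold in the Liver median. In CS 147 of them were portal in 8 of 8 samples and 128 by more than 2-fold. Their median log2 portal over central was 1.37 in CS and 1.58 in Liver. The difference was past the threshold for 29, all of them smaller in CS. These genes were chosen on their Liver values, which favours smaller values in CS. Among named genes of at least 50 CPM in periportal Liver, the 10 with the largest ratios were Hsd17b13 (a lipid droplet enzyme), Cdh1 (E-cadherin), Plxna2 (a semaphorin receptor), Tcf7l1 (a repressor of Wnt targets), Grm8 (a glutamate receptor), Efna3 (an ephrin), Gldc (of the glycine cleavage system), Sfxn1 (a mitochondrial serine carrier), Ctsc (cathepsin C) and Ncam2 (a cell adhesion molecule). All 10 were portal in 8 of 8 CS samples, with medians of 2.93 (Sfxn1) to 4.67 (Hsd17b13), against 3.62 to 5.18 in Liver. Cdh1 ran in CS from 98.6 to 224 CPM (median 139) in the periportal sums and 1.78 to 15.1 CPM (median 8.68) in the pericentral sums, without overlap. Its portal excess was nonetheless smaller in CS (log2 difference -1.48, adjusted p = 0.000201), and so was that of Sfxn1 (-1.10), Efna3 (-0.88), Plxna2 (-0.85) and Ncam2 (-0.72), while the other 5 did not pass. Of these calls, Efna3 was lost without any one of mice 2 to 8, Ncam2 without mouse 4 or 8 and Plxna2 without mouse 2 or 7, and the values of Cdh1, Efna3 and Ncam2 turned to 0.0695, 0.0857 and 1.76 in spliced UMIs alone, none of which passed. With the score of thinned nuclei Efna3 and Plxna2 had -0.42 and -0.59 (adjusted p = 0.534 and 0.186). With the counts thinned too they had -0.13 and -0.76 (adjusted p = 0.963 and 0.0373). Cdh1, Sfxn1 and Ncam2 were called in both fits. The periportal level of Cdh1 did not pass between CS and Liver (log2 fold change -0.00, SE 0.17, adjusted p = 0.999), and its pericentral median was 8.68 CPM in CS and 3.41 CPM in Liver. On the central side 207 of 235 such genes were lower at the portal end in 8 of 8 CS samples. Their median log2 portal over central was -1.52 in CS and -1.70 in Liver. The difference was past the threshold for 43 of them, and 40 of these had a smaller zonal gap in CS. These genes too were chosen on their Liver values.

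**Figure D5:**
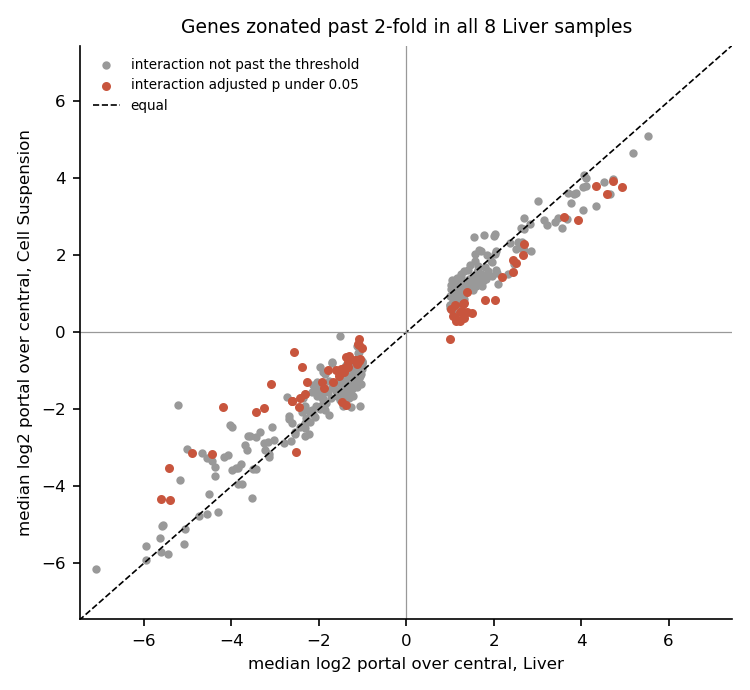
Median log2 portal over central of 165 portal and 235 central genes, in Liver (horizontal) and Cell Suspension (vertical), each point 1 gene, score genes left out. The genes lay on the same side in all 8 Liver samples and past 2-fold in the Liver median. Red points passed the test of the difference. The points follow the dashed line of equal values but lie nearer to 0 for 128 portal and 175 central genes.

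Differences above 0 were led by genes that are low in periportal nuclei. Sgcz (a sarcoglycan), Tox (a chromatin factor), Mid1 (a microtubule-bound ubiquitin ligase), Gdf15 (a stress-induced cytokine) and Robo1 (a guidance receptor) had values of 1.40, 1.07, 0.89, 0.85 and 0.76. In spliced UMIs alone the value of Robo1 was -0.41 and did not pass. All 5 were lower at the portal end in 8 of 8 samples of either type, and for 4 of them the periportal level did not pass the test between CS and Liver. Sgcz had 18.9 CPM in the periportal and 34.9 CPM in the pericentral sums in CS and 19 CPM in the periportal and 94.1 CPM in the pericentral sums in Liver as medians, a smaller gap on the central side. Gdf15 is the exception, since it rose in the members. It ran from 51.3 to 347 CPM in the Cell Suspension sums (median 137) and from 0.798 to 14.2 CPM in the Liver sums (median 6.81) (log2 fold change 4.50, adjusted p = 1.33e-07), while its pericentral median went from 22 to 289.7 CPM. Mid1 and Robo1 averaged 424 and 312 CPM in endothelial nuclei of CS, above their level in the members.

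A fixed 25% of each sample says nothing about how many hepatocytes were periportal, so the share of nuclei under 1 common score was also taken, as a description. The 25% value pooled over Liver was a score of -3.81. Under it lay 8.2 to 38.2% of the CS hepatocyte nuclei (mean 21.7 ± 9.62, SD, n = 8) and 16.2 to 38.9% of the Liver ones (mean 25.6 ± 6.98). With every nucleus thinned to 2000 UMIs the means were 31.7 ± 10.4% in CS and 28.9 ± 7.06% in Liver, so the order of the types turned with depth and lay within the spread between mice either way. The gap between the median scores of the pericentral and periportal sets was 8.44 ± 0.893 in CS and 9.7 ± 0.871 in Liver, and 6.68 and 6.71 after thinning.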

How the data were processed

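Nuclei of 8 mice in 3 sample types were labelled with hashtags, sorted, mixed as 6 pools and sequenced as 10x 3′ libraries. Per the study's methods and the labels, reads were converted with bcl2fastq 2.19.0 and mapped with Salmon alevin and alevin-fry to GRCm38 transcripts that keep spliced and unspliced forms apart. The authors deposited raw UMI counts per pool (spliced, unspliced and ambiguous, summed here) and a table that gives each of 53467 nuclei its hashtag sample and cell type. The authors' cell types and filters were used as deposited, and further doublets were not removed. The hashtag written CD2 belongs to the type CS and was taken as the suspension sample of mouse 2. The annotation of isolated hepatocytes comes from clusters of these data, and taking either hepatocyte annotation in both types gave 2491 calls.

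The members, gene lists and tests were chosen with earlier results of these data known. UMIs of members were summed per sample. Genes with at least 10 counts over all sums were scaled by TMM and tested with edgeR 4.0.16 in R 4.3.3 (DESeq2 1.42.0 as an alternative), with no covariate for CS against Liver. CPM are counts over the scaled library total, over 16 periportal sums, or over 32 sums where pericentral values stand beside them. Endothelial and left-out values are plain CPM. Calls are adjusted p under 0.05. Differences of per-nucleus medians between sample types used exact permutation tests (scipy 1.17.1). Both fits were tested on simulated data.

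Besides list members, the text names the 10 largest rises and falls that were called, reached 50 CPM in a group and did not overlap, the 5 largest interactions each way from 20 CPM, and the 10 most portal Liver genes from 50 CPM. Predicted and unnamed transcripts and score genes were counted but not named. CS and Liver with the same number come from the same liver. Deviations from the group means correlated within a mouse at 0.518 to 0.912 over 3502 genes, with a median of -0.0964 between mice, and 8 of 8 CS samples were most like their own mouse. For the clusters, differential results and cultured cells of the deposit nothing was used here. RefSeq promoter windows of GRCm38.p6 matched 22 of 28 immediate early genes by symbol. The values of 1 gene of the cholesterol list are not reported here.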

Additional observations from a re-analysis of the deposited data

Results flagged for a closer look

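In 8 of 66 groups of 8 samples 1 sample stood apart from the others by its gap. The cutoff marks about 1 of 20 groups when values are normal and groups independent. CPM were not put on a log scale for it and the groups share samples, so that rate need not hold here. Atp5f1 stood in the periportal Cell Suspension sum of mouse 2 at 37.9 CPM against a median of 20.5 CPM. Egr1 stood in the periportal Cell Suspension sum of mouse 2 at 561 CPM against a median of 856 CPM. Fos stood in the periportal Liver sum of mouse 3 at 7.26 CPM against a median of 2.61 CPM. Jun stood in the periportal Liver sum of mouse 5 at 72.4 CPM against a median of 27.8 CPM. Nr4a1 stood in the periportal Liver sum of mouse 4 at 25.1 CPM against a median of 7.24 CPM. Pex11g stood in the periportal Liver sum of mouse 4 at 83.2 CPM against a median of 56.4 CPM. Tox stood in the periportal Liver sum of mouse 6 at 48.9 CPM against a median of 13.9 CPM. The median mitochondrial percent of periportal Cell Suspension nuclei of mouse 1 was 0.176 against a median of 0.109. The portal-central difference itself differed between CS and Liver, on the log2 scale, by -1.89 for Nr4a1, -1.63 for Fosb, -1.53 for Bcl2l11, -1.53 for Irs2 and -1.52 for Wars. It differed by 1.40 for Sgcz, 1.07 for Tox, 0.89 for Mid1, 0.85 for Gdf15 and 0.76 for Robo1, all by the interaction test of edgeR, and the value of Robo1 was -0.41 in spliced UMIs alone.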

How the results depend on the processing

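For periportal CS against Liver, 2520 genes were called, and 694 with sums thinned to equal depth, 1164 with nuclei thinned to 2000 UMIs, 1308 with the pool as a covariate, 1298 with that covariate in pools holding both types, 1498 from spliced UMIs and 4534 with the mouse as a replicate block. All 108 named or listed genes called without the block kept their call with it. Leaving out 1 mouse gave 1790 (mouse 4) to 2268 (mouse 5). For the portal-central difference 608 were called, and 130 at equal depth, 334 with thinned nuclei, 396 from nuclei of at least 4000 UMIs, 247 from spliced and 398 from unspliced UMIs, and 385 (without mouse 4) to 634 (without mouse 3) with 1 mouse left out. Its higher calls were 206, and ranged from 16 at equal depth, 64 from at least 4000 UMIs, 91 from spliced UMIs or without mouse 2, 98 from unspliced UMIs and 100 with the thinned score to 294 against all other hepatocyte nuclei and 326 in pools holding both types. The thinned nuclei and the restriction to pools with both types were added after seeing the data. Thinning also left fewer genes to test. The cause of the other changes was not tested.

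Signs turned in spliced UMIs for Elovl5 (-0.45) and Haao (0.34) between CS and Liver, and for Cdh1 (0.0695), Efna3 (0.0857), Hspd1 (0.0554), Ncam2 (1.76), Pnpla3 (0.26) and Robo1 (-0.41) in the portal-central difference. In unspliced UMIs they turned for Slc22a3 (0.13 and 0.35) and Dusp1 (0.13), and with thinned nuclei for Pdk4 (0.68). None of these turned values passed the threshold. Of 2768 values of the single genes under the alternatives 2501 kept their call between CS and Liver, and 1307 of 1614 did for the portal-central difference. The tests of the per-nucleus measures kept their calls under the alternatives run. The mean share under the common score was 31.7% in CS with thinned nuclei and 19.3 to 23.7% with 1 mouse left out. The shallowest CS sum, mouse 7 with 75 members, limits what can be seen of genes near 1 CPM.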
